A study of Cavia porcellus with 34 samples.

Results

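The respiratory chain is the set of protein complexes in the inner mitochondrial membrane that passes electrons from NADH and succinate to oxygen and uses the resulting proton gradient to make ATP. Complex I (the NDUF subunits) takes electrons from NADH, complex II (SDH) from succinate, complex III (UQCR subunits and cytochrome c1) hands them to cytochrome c, complex IV (COX subunits) reduces oxygen, and complex V (ATP5 subunits) is the ATP synthase. Neurons of the hypothalamus depend on this chain for most of their ATP, and its complexes are assembled from nuclear and mitochondrial gene products, many of them small accessory subunits.

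Respiratory chain genes were taken by the prefix of their symbols and assigned to complexes I to V, with the complex I assembly factors (NDUFAF) kept apart. The rule found 70 genes among the 12592 distinct symbols of the series, of which 63 were subunits (30 of complex I, 3 of complex II, 7 of complex III, 12 of complex IV and 11 of complex V) and 7 were assembly factors. Of these, 68 were in the F1 table, 70 in F2 and 68 in F3, and 68 were in every table. COX6A2, the heart and muscle isoform of a complex IV subunit, was analysed in F2 only, where its mean was below the minimum of 10 and it was not tested, so that 68, 69 and 68 members were tested in F1, F2 and F3. It read 5.78, 16.6, 9.46, 4.96 and 2.79 in the Veh animals and 7.7, 9, 5.86, 5.77 and 3.23 in the sGC animals. UQCRQ, a small complex III subunit, was also analysed in F2 only. The gene for cytochrome c, SDHD and the subunits encoded by mitochondrial DNA were not analysed here. Some members are kept where their prefix puts them although their present names place them elsewhere. NDUFA4 is now regarded as a subunit of complex IV, and ATP5S and ATP5SL are not structural subunits of the ATP synthase.

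The tissue was a micropunch holding the hypothalamic paraventricular nucleus (PVN), taken on postnatal day 40 from juvenile females, and each animal was 1 library. Pregnant F0 dams had received repeated courses of the synthetic glucocorticoid betamethasone (sGC; "Beta" in the labels) or saline vehicle (Veh; "Control"), so F1 animals were exposed in utero, while F2 and F3 animals descended through F1 and F2 males mated with untreated females. F1 comprised 5 Veh and 5 sGC animals, F2 5 Veh and 5 sGC, and F3 6 Veh and 6 sGC, 32 animals in all. A punch of this kind holds several cell types. The neuropeptide genes of the nucleus (AVP, OXT, CRH and TRH) and SIM1 were above 0 in every animal. Vasopressin (AVP) in F1 read from 57729 to 110896 in Veh and from 10101 to 99012 in sGC. The PVN transcription factor SIM1 read from 1219 to 1450.1 and from 712 to 1476 in the same groups.

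All values are the authors' normalized counts, here scaled so that each animal's total equals the mean total of its table (scaled values). Deposited totals per animal ran from 15573233 to 21935501 in F1, from 15645962 to 19435104 in F2 and from 18692048 to 18977539 in F3. Fold changes are sGC relative to Veh on the log2(scaled value + 1) scale and were tested with limma over all genes of a table, where a gene was called at an adjusted p (Benjamini-Hochberg) under 0.05. The tables were normalized apart, so levels were not compared between generations, and levels of different genes were not compared because transcript lengths were not used here.

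In F1, respiratory chain genes were lower in sGC than in Veh across complexes I, III, IV and V. In a tissue punch, fewer cells of a type and less RNA per cell cannot be told apart. Of 61 subunits tested, 32 fell and 0 rose, that is 17 of 30 in complex I, 0 of 3 in complex II, 4 of 6 in complex III, 6 of 11 in complex IV and 5 of 11 in complex V. Of the assembly factors, 0 of 7 were called. Among all 11873 genes tested 7.72% fell and 8.64% rose. The median log2 fold change was -0.21 in complex I, -0.12 in complex II, -0.15 in complex III, -0.20 in complex IV, -0.18 in complex V and -0.083 in the assembly factors, against 0.0090 over all genes. Over the 61 subunits it corresponded to a change of -13.0%. The fold change was below 0 in 57 of 61 subunits, against 48.0% of all genes, and in 20 subunits every sGC animal was below every Veh animal, against 6.43% of all genes.

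**Figure D1:**
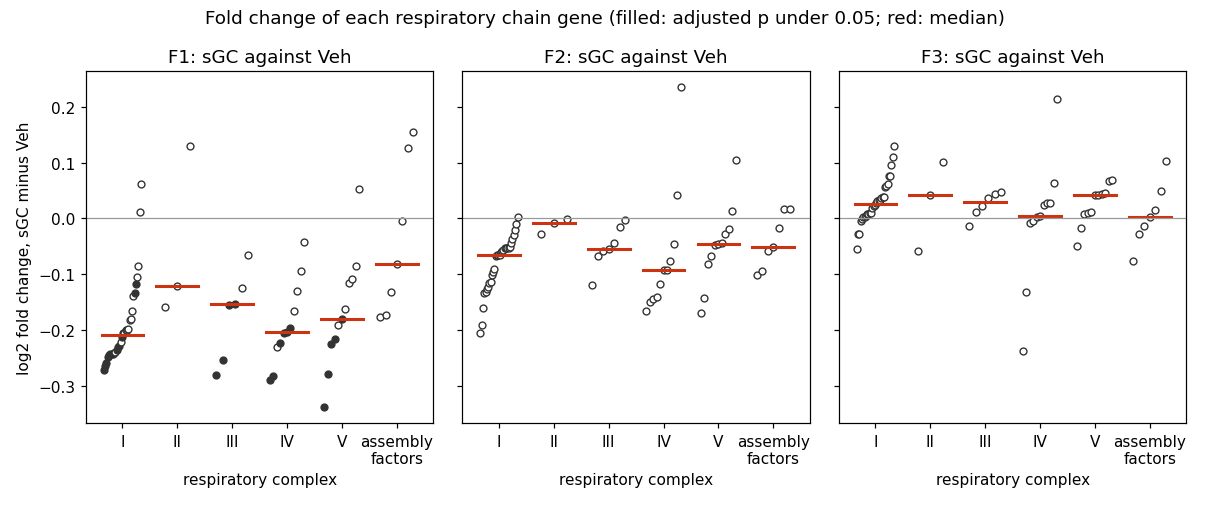
Each point is 1 respiratory chain gene, placed by complex (x axis) and by its log2 fold change of sGC against Veh (y axis) in F1 (n = 5 and 5 animals), F2 (n = 5 and 5) and F3 (n = 6 and 6). Filled points passed the limma test and red bars are medians. In F1 most points of complexes I, III, IV and V lie below 0 and 32 subunits are filled, while no point is filled in F2 or F3.

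Complex I, which has the most subunits, held the most members that fell in F1. The share that fell was 56.7% in complex I, 0% in complex II, 66.7% in complex III, 54.5% in complex IV and 45.5% in complex V. NDUFS3, a core subunit of the arm that carries electrons towards ubiquinone, read 1732, 1811, 1777, 1786 and 1800.0 in the Veh animals and 1455, 1649, 1458, 1520.4 and 1449.6 in the sGC animals. Every sGC animal was below every Veh animal, and the log2 fold change was -0.24 ± 0.042 (SE; adjusted p = 0.0044). NDUFB2, an accessory subunit of the membrane arm, read 1245, 1195, 1224, 1208 and 1234 in the Veh animals and 1046, 1094, 955, 1059 and 1006 in the sGC animals, again without overlap, with a log2 fold change of -0.24 ± 0.043 (SE; adjusted p = 0.00472). NDUFS6, a zinc-binding subunit of the NADH-oxidizing module, read 1353, 1280.4, 1382, 1266 and 1563 in the Veh animals and 1162, 1251, 1114, 1142 and 1102 in the sGC animals. Its groups did not overlap either, although sGC animal SGM8 at 1251 lay just under the lowest Veh animal, and the log2 fold change was -0.24 ± 0.061 (SE; adjusted p = 0.0226).

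The NDUFB subunits of the membrane arm shared this direction. All 9 of them, which surround the proton-pumping core of that arm, had a fold change below 0, with a median of -0.24 and a range of -0.26 to -0.17. Of the 9, 7 fell, against 7.72% of all genes. NDUFB4 fell by 0.24 on the log2 scale (adjusted p = 0.0159). Of 10 NDUFA subunits, 4 fell, among them NDUFA5 of the peripheral arm at -0.27 (adjusted p = 0.0138) and the mitochondrial acyl carrier protein NDUFAB1 at -0.24 (adjusted p = 0.0155).

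Subunits of the NADH-oxidizing module of complex I were given individually. NDUFV1, which binds the flavin that accepts electrons from NADH, read 3702, 3532, 3579, 3691 and 3451 in the Veh animals and 3144, 3516, 3368, 3243 and 3113 in the sGC animals, where only sGC animal SGM8 reached the Veh range, and its log2 fold change was -0.13 ± 0.041 (SE; adjusted p = 0.0472). With size factors in place of totals its adjusted p was 0.0686 and it did not pass. NDUFS1, the largest iron-sulfur subunit of the same module, read 3730.3, 3596, 3695, 3557 and 3836 in the Veh animals and 3938, 4076, 3844, 3636 and 3722 in the sGC animals. Its sGC values lay within or above the Veh range, with a log2 fold change of 0.061 ± 0.039 (SE; adjusted p = 0.305). All 3 NDUFV subunits were below 0, from -0.14 to -0.085, and 1 was called.

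Complex II is also an enzyme of the citric acid cycle, and none of its 3 members passed in F1. SDHA, the flavoprotein that oxidizes succinate, read 3949.9, 3831, 3829, 3946 and 3688 in the Veh animals and 4469, 4382, 3936, 4023 and 4271 in the sGC animals. It was higher than the Veh mean in 5 of 5 sGC animals, with overlap between the groups, and its log2 fold change of 0.13 ± 0.042 (SE; adjusted p = 0.0553) did not pass the test. Without sGC animal SGM12 the adjusted p was 0.0295. SDHB, the iron-sulfur subunit that takes electrons from SDHA, read 2196, 1921, 1963, 1763 and 1918 in the Veh animals and 1658, 1864, 1820.3, 1829.7 and 1784 in the sGC animals, with a log2 fold change of -0.12 ± 0.057 (SE; adjusted p = 0.163). Its groups overlapped through Veh animal SGM15, the lowest of the Veh animals. SDHC, one of the membrane anchors, stood at -0.16 (adjusted p = 0.148).

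In complex III the small subunit UQCR10 read 1313, 1278, 1267, 1151 and 1293 in the Veh animals and 1066, 1099, 987, 1051 and 1077 in the sGC animals. The groups did not overlap and the log2 fold change was -0.25 ± 0.047 (SE; adjusted p = 0.00611). CYC1, cytochrome c1, read 2794, 2669, 2788, 2568 and 2978 in the Veh animals and 2331, 2563, 2488, 2569 and 2451 in the sGC animals, with 1 sGC animal just inside the Veh range, and changed by -0.15 ± 0.045 (SE; adjusted p = 0.0422). UQCRFS1, the Rieske iron-sulfur protein, changed by -0.15 ± 0.042 (SE; adjusted p = 0.0295) without overlap. The core proteins UQCRC1 and UQCRC2 stood at -0.12 (adjusted p = 0.0687) and -0.066 (adjusted p = 0.292) and did not pass.

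In complex IV, COX6C, a small subunit of the membrane part, read 2001, 2247, 2161, 2030.5 and 2360.4 in the Veh animals and 1834, 1973, 1722, 1711 and 1602 in the sGC animals. All sGC animals were below all Veh animals, with a log2 fold change of -0.29 ± 0.063 (SE; adjusted p = 0.0131). COX7A2, the widely expressed isoform of its subunit, read 2370.1, 2602, 2565, 2263 and 2933 in the Veh animals and 1931, 2260.1, 2018, 2046 and 2191 in the sGC animals and changed by -0.28 ± 0.070 (SE; adjusted p = 0.0211), where the highest sGC value, in SGM8, lay just under the lowest Veh value. COX4I1, the regulatory subunit used in most tissues, read 4503, 4253, 4372, 4082 and 4559.8 in the Veh animals and 3618, 4276, 3772, 3827 and 3536 in the sGC animals, and again only SGM8 reached into the Veh range. Its log2 fold change was -0.20 ± 0.053 (SE; adjusted p = 0.0301). COX5A changed by -0.20 (adjusted p = 0.0332) and COX6A1 by -0.22 (adjusted p = 0.0276), and COX6B1 stood at -0.23 (adjusted p = 0.108).

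The partner isoforms that mark other tissues or oxygen-dependent use did not pass. COX4I2, the lung isoform, read 25.6, 23.6, 25.0, 27.8 and 26.1 in the Veh animals and 41.4, 23.1, 21.9, 15.5 and 18.2 in the sGC animals, low values at which 1 sGC animal stood well above the rest, and its log2 fold change was -0.17 ± 0.24 (SE; adjusted p = 0.67). COX6B2, the testis isoform, stood at -0.042 (adjusted p = 0.87), COX7A1, the heart and muscle isoform, at -0.13 (adjusted p = 0.517) and NDUFA4L2, an inducible relative of NDUFA4, at -0.18 (adjusted p = 0.247). NDUFA4 itself stood at -0.22 (adjusted p = 0.0632). The direction of COX6B2 depended on the scaling, since its log2 fold change was 0.014 on the deposited scale.

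In complex V the lowest fold changes belonged to ATP5H and ATP5J, both of the peripheral stalk. ATP5H, subunit d of the peripheral stalk, read 2558, 2662, 2648, 2518 and 2821 in the Veh animals and 2109, 2267, 2031, 1985 and 2057 in the sGC animals. The groups were well apart, and its log2 fold change of -0.34 ± 0.045 (SE; adjusted p = 0.00154) was the lowest of all members in F1. ATP5J, coupling factor F6, changed by -0.28 ± 0.065 (SE; adjusted p = 0.0173). ATP5C1, the gamma subunit that turns within the catalytic head, changed by -0.23 ± 0.045 (SE; adjusted p = 0.00855), and ATP5F1, subunit b of the peripheral stalk, by -0.18 ± 0.037 (SE; adjusted p = 0.00942), both without overlap. Of the genes for the rotating c ring, ATP5G3 changed by -0.22 (adjusted p = 0.0231) and ATP5G2 stood at -0.19 (adjusted p = 0.0955).

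The alpha and beta subunits of the catalytic head did not pass, while ATP5C1, the gamma subunit within it, did. ATP5B, the beta subunit that makes ATP, read 16352, 16516, 16651, 16129 and 17322 in the Veh animals and 15310.5, 15942, 15457, 14549 and 15734 in the sGC animals. Its groups did not overlap, but the log2 fold change of -0.11 ± 0.036 (SE; adjusted p = 0.063) did not pass the test. ATP5A1, the alpha subunit, stood at -0.085 ± 0.046 (SE; adjusted p = 0.231). The difference in fold change between head and stalk subunits was not tested.

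**Figure D2:**
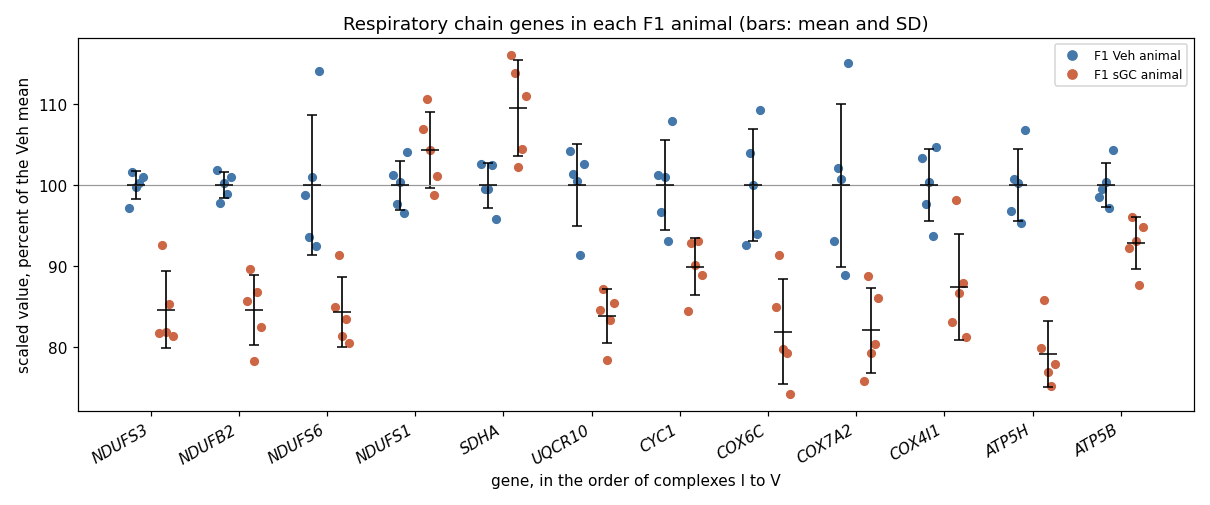
Scaled values of 12 respiratory chain genes in each F1 animal as a percent of the gene's Veh mean (y axis), for 5 Veh (blue) and 5 sGC (orange) animals, with bars for the mean and SD. ATP5H, NDUFS3, NDUFB2 and UQCR10 are separated between groups, NDUFS1 overlaps, and all 5 SDHA values of sGC animals lie above 100% of the Veh mean.

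No complex I assembly factor was called in F1, that is 0 of 7, against 7.72% lower and 8.64% higher among all genes. In a list of 7 genes the count is too small to be read against these shares. The factors' log2 fold changes ran from -0.18 to 0.15, with 5 of 7 below 0, and the smallest adjusted p was 0.0588. NDUFAF5 at 0.13 (adjusted p = 0.353) and NDUFAF7 at 0.15 (adjusted p = 0.229) were the most positive values of the members, together with SDHA, and neither passed.

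The number of F1 calls changed with the scaling and with single animals. On the deposited scale, without scaling, 0 of 68 members passed and 1 had an unadjusted p under 0.05, with 0.0505% of all genes called lower. The subunit median relative to all genes was -0.21 on both scales. That agreement was fixed in advance, because scaling shifts all genes of an animal nearly alike, and it is no check of the calls. With size factors 33 members fell, against 8.86% of all genes. With the variation removed by the residual normalization counted as a covariate, 19 members fell, against 4.73% of all genes. Leaving out 1 animal at a time gave between 12 and 38 called members, with 12 without Veh animal SGM11, 17 without SGM19, 18 without SGM3, 20 without SGM7, 20 without sGC animal SGM4, 19 without SGM16, 20 without SGM20, and 38 without Veh animal SGM15 or sGC animal SGM8. In the same fits, the share of all genes called lower was 2.95% without SGM11, 5.22% without SGM19, 5.46% without SGM3 and 5.12% without SGM7. It was 5.35% without SGM4, 6.26% without SGM16, 6.15% without SGM20, 8.09% without SGM15 and 7.1% without SGM8. Without SGM12 it was 7.24%, and 22 members were called, of which 21 fell. The other was SDHA, which was higher, in a fit where 1096 of all genes were called higher. With all animals the share called lower was 7.72%. The subunit median relative to all genes stayed between -0.25 and -0.18 in the 10 fits without 1 animal. ATP5H, ATP5C1, ATP5F1, COX6C, NDUFA5, NDUFAB1, NDUFB2, NDUFB4, NDUFS3 and UQCR10 passed in 10 of 10 of them and ATP5G3, COX7A2 and NDUFS6 in 9. COX6A1 and UQCRFS1 passed in 4, COX4I1 in 3, COX5A and CYC1 in 2 and NDUFV1 in 1.

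Within F1, the animals differed in how far their respiratory chain genes lay from the Veh mean. The median deviation of the 61 subunits from their Veh means, minus that of all genes, ran from -0.099 to 0.075 on the log2 scale in Veh and from -0.25 to -0.070 in sGC. SGM4, SGM12, SGM16 and SGM20 of the sGC group lay between -0.25 and -0.20. SGM8, also sGC, at -0.070 lay above the lowest Veh animal, SGM15, at -0.099. SGM8 was the highest sGC animal in complexes I, III, IV and V, and SGM15 the lowest Veh animal in all 5 complexes. In complex V the groups did not overlap, with Veh from -0.080 to 0.058 and sGC from -0.24 to -0.10.

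**Figure D3:**
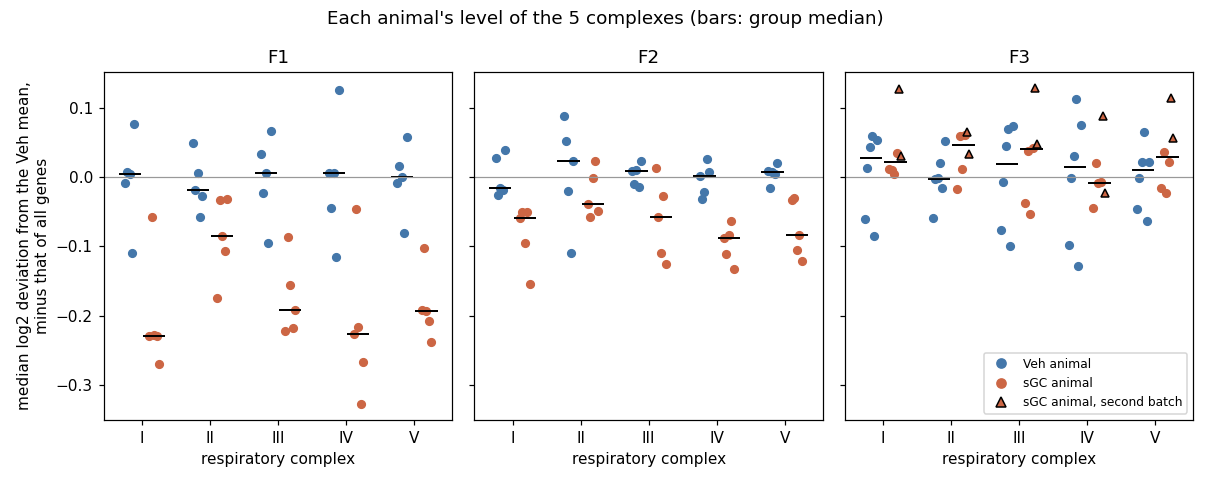
For each animal and complex, the median over subunits of the log2 deviation from the gene's Veh mean, minus the same median over all genes (y axis), in Veh (blue) and sGC (orange) animals of F1, F2 and F3, with bars for group medians and triangles for the second sequencing batch. In F1 4 of 5 sGC animals lie below all Veh animals in complexes I and IV, and all 5 do in complex V. In F2 the sGC animals lie closer to the Veh animals, but below all of them in complexes I, IV and V. In F3 the groups overlap.

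Cell type markers also differed between the F1 groups. The markers of PVN neuroendocrine neurons had a median log2 fold change of -0.73 (10 of 10 below 0, 1 called), and their median deviation per animal ran from -0.29 to 0.12 in Veh and from -1.66 to 0.12 in sGC. Among the sGC animals it was -1.66, -0.82, -0.17, 0.12 and -1.07 in SGM4, SGM8, SGM12, SGM16 and SGM20, whose subunit medians were -0.22, -0.070, -0.20, -0.23 and -0.25 in the same order. Medians were 0.31 for endothelial markers (10 of 10 above 0, 0 called), 0.26 for mural markers (7 of 7 above 0, 1 called), 0.21 for oligodendrocyte markers (9 of 9 above 0, 0 called), 0.25 for microglial markers (4 of 7 above 0, 1 called), 0.10 for astrocyte markers (8 of 10 above 0, 0 called) and 0.053 for general neuronal markers (5 of 10 above 0, 1 called higher and 2 lower). The median was 0.087 for 10 ependymal markers and 0.53 for 2 fibroblast markers, with 0 called in either list. Per animal, the medians ran from -0.16 to 0.094 in Veh and from -0.14 to 0.90 in sGC for endothelial markers and from -0.47 to 0.40 and from -0.39 to 1.06 for oligodendrocyte markers. For the 2 fibroblast markers they ran from -0.19 to 0.10 in Veh and from 0.12 to 1.84 in sGC, without overlap. The part of these cell types in the fall of the respiratory chain genes was not tested.

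Other housekeeping machinery moved in the same direction in F1. Among cytosolic ribosomal proteins, 24 of 52 fell and 0 rose, against 7.72% and 8.64% of all genes, with a median of -0.18. Of the mitochondrial ribosomal proteins, 22 of 67 fell and 2 rose (median -0.15), and of the proteasome subunits 11 of 28 fell and 0 rose (median -0.16). The lists were not tested against each other, so no difference between them and the respiratory chain genes is shown.

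Other genes of the pathway were counted in the same way. Of 19 factors for complex IV and V assembly, 6 fell and 0 rose in F1, against 7.72% and 8.64% of all genes, including COX14 at -0.35 (adjusted p = 0.0024), COX17, the copper chaperone of cytochrome oxidase, at -0.29 (adjusted p = 0.0074) and ATPIF1, the inhibitor of the ATP synthase, at -0.29 (adjusted p = 0.00767), named after their values were seen. Of 6 SDHAF and UQCC factors, 1 fell. Of 18 genes of electron entry and ubiquinone synthesis, 2 fell and 0 rose, and of 6 genes for uncoupling and ADP/ATP exchange, 1 fell and 1 rose. Among 17 regulators of respiratory genes, 3 rose and 1 fell. In these lists of 6 to 18 genes the counts are too small to be read against the shares of all genes. PPARGC1A (PGC-1alpha), the coactivator of mitochondrial biogenesis, read from 511 to 565 in Veh and from 587 to 845 in sGC, without overlap, and rose by 0.41 ± 0.085 (SE; adjusted p = 0.0104). ESRRA, a nuclear receptor that works with it, fell, with a log2 fold change of -0.18 ± 0.048 (SE; adjusted p = 0.0271). Leaving out 1 animal at a time, ESRRA passed in 3 of 10 fits, with adjusted p-values up to 0.0719 (without Veh animal SGM11), and it was lost without SGM3, SGM7 and SGM19 of Veh and SGM4, SGM16 and SGM20 of sGC as well, while PPARGC1A passed in 10 of 10. NRF1, a transcription factor of respiratory genes, and TFAM, which packages and transcribes mitochondrial DNA, stood at 0.064 (adjusted p = 0.587) and -0.17 (adjusted p = 0.169).

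**Figure D4:**
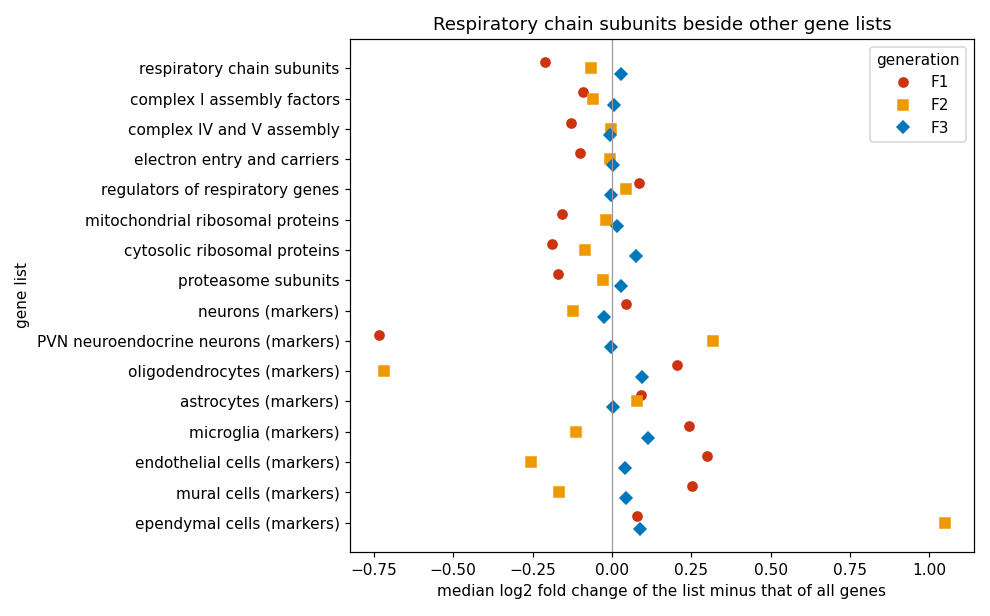
Median log2 fold change of sGC against Veh of each gene list minus the median of all genes (x axis) in F1 (circles), F2 (squares) and F3 (diamonds). Respiratory chain subunits, both kinds of ribosomal proteins and proteasome subunits lie below 0 in F1, and PVN neuroendocrine markers in F1 and oligodendrocyte and ependymal markers in F2 lie farthest from 0.

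In F2, no respiratory chain gene passed the test, although most fold changes were again below 0. By limma, 0 of 69 members and 0% of 11961 genes were called. At an unadjusted p under 0.05, 15 members were lower and 0 higher, against 5.11% and 7.08% of all genes, and 4 members were lower without overlap, against 1.45% of all genes. The median log2 fold change was -0.065 in complex I, -0.0076 in complex II, -0.055 in complex III, -0.093 in complex IV and -0.047 in complex V, against 0.0078 over all genes, and 57 of 62 subunits were below 0, against 46.8% of all genes. Of the 12 members named for their roles, 12 were below 0, from -0.21 in NDUFS6 to -0.00065 in SDHA.

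NDUFA6, an accessory subunit of complex I, read 1762, 1733, 1795, 1801 and 1839 in the Veh animals and 1684, 1662, 1635, 1603 and 1564 in the sGC animals in F2. The groups did not overlap, and the log2 fold change was -0.13 ± 0.035 (SE; adjusted p = 0.184). COX6B1, which joins the monomers of complex IV, read 2857, 2688, 2714, 2740.5 and 2758 in the Veh animals and 2373, 2439, 2554, 2636 and 2482 in the sGC animals, also without overlap, at -0.14 ± 0.038 (SE; adjusted p = 0.189). UQCRFS1 read 1722, 1643, 1712, 1591 and 1622 in the Veh animals and 1508, 1509, 1552, 1524 and 1535 in the sGC animals, without overlap, at -0.12 ± 0.036 (SE; adjusted p = 0.228). All of these had fallen in F1 or stood below 0 there, and none passed in F2.

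The most negative fold changes in F2 belonged to NDUFS6 at -0.21 ± 0.063 (SE; adjusted p = 0.24), NDUFV3, a subunit of the NADH-oxidizing module, at -0.19 ± 0.054 (SE; adjusted p = 0.199) and ATP5D, the delta subunit of the catalytic part, at -0.17 ± 0.045 (SE; adjusted p = 0.182). ATP5D read 2127, 1915, 2081, 1989.7 and 2084 in the Veh animals and 1858, 1718, 1771, 1940.4 and 1782 in the sGC animals, with 1 sGC animal inside the Veh range. The most positive were COX6B2 at 0.24 (adjusted p = 0.721), ATP5SL at 0.10 (adjusted p = 0.678) and COX7A1 at 0.043 (adjusted p = 0.94). COX6B2 read 105, 70.7, 88.9, 61.5 and 59.5 in the Veh animals and 85.7, 80.0, 77.1, 139 and 75.3 in the sGC animals, low values with wide overlap. COX7A1 turned to -0.040 on the deposited scale. SDHB had the smallest p in complex II, at -0.028 (adjusted p = 0.867).

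Per animal, the subunit medians in F2 ran from -0.021 to 0.029 in Veh and from -0.13 to -0.050 in sGC, so that each sGC animal lay below each Veh animal, as they did in complexes I, IV and V, while complexes II and III overlapped. Oligodendrocyte markers had a median log2 fold change of -0.71 in F2, with 10 of 10 lower without overlap and 0 called, and ependymal markers of 1.06, with 8 of 8 above 0 and 0 called. Their median deviation per animal ran from -0.29 to 0.64 in Veh and from -1.07 to -0.53 in sGC for oligodendrocyte markers. The PVN neuroendocrine markers stood at 0.33 (9 of 10 above 0, 0 called) and the endothelial markers at -0.25 (10 of 10 below 0, 0 called). Cytosolic ribosomal proteins were below 0 in 51 of 54, with a median of -0.076 against -0.059 for the respiratory chain subunits, and 0 were called. The part of these lists in the F2 values was not tested. None of the lists of other assembly factors, electron entry, uncoupling or regulators held a called gene in F2. PPARGC1A stood at 0.061 (adjusted p = 0.89) in F2 and ESRRA at -0.10 (adjusted p = 0.407).

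In F3, no respiratory chain gene passed the test. The size of the small shifts and the number of subunits below 0 depended on 2 sGC animals of a second sequencing batch and on single Veh animals, as given with the batches. By limma, 0 of 68 members and 5 of 11865 genes (0.0421%) were called. At an unadjusted p under 0.05, 6 members were higher and 1 lower, against 5.90% and 7.13% of all genes. The median log2 fold change was 0.025 in complex I (25 of 30 above 0), 0.041 in complex II, 0.029 in complex III, 0.0041 in complex IV and 0.042 in complex V. The groups overlapped in each of the 68 members, as they did in most genes, with 0.666% of all genes lower without overlap, and 13 of 61 subunits were below 0, against 52.0% of all genes.

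NDUFB4, an accessory subunit of the complex I membrane arm, ran in F3 from 1547 to 1733 with a median of 1617 in the Veh animals and from 1709 to 1811 with a median of 1760.3 in the sGC animals. The groups overlapped slightly, and the log2 fold change was 0.11 ± 0.030 (SE; adjusted p = 0.16). SDHC ran from 2722 to 2965 with a median of 2796 in the Veh animals and from 2838 to 3098 with a median of 3058 in the sGC animals, at 0.10 ± 0.029 (SE; adjusted p = 0.171). SDHA ran from 3827 to 3999.9 with a median of 3867 in the Veh animals and from 3614 to 3827 with a median of 3727 in the sGC animals, so that 6 of 6 sGC animals were below the Veh mean, at -0.059 ± 0.021 (SE; adjusted p = 0.251). Within complex II, SDHA was positive and SDHC negative in F1, and SDHA negative and SDHC positive in F3, and neither passed the test in either generation.

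Among the other members with the smallest p of their complex in F3, UQCRC2 stood at 0.044 (adjusted p = 0.596), COX5B at 0.064 (adjusted p = 0.425) and ATP5F1 at 0.066 (adjusted p = 0.397). The most positive values with a mean of at least 50 were NDUFB5 at 0.13 (adjusted p = 0.339), NDUFB4 and NDUFAF6 at 0.10 (adjusted p = 0.593), and the most negative were COX7A1 at -0.13 (adjusted p = 0.589), NDUFAF2 at -0.076 (adjusted p = 0.794) and SDHA.

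SGM21 and SGM22 of the F3 sGC group came from a second sequencing batch. Veh libraries were re-run in that batch but are not used here, so that the second-batch animals compared are all sGC. Within the first batch alone, or with batch as a covariate, 29 of 61 subunits were below 0, in place of 13. Both settings take their fold changes from the first-batch animals, because a batch covariate takes up the second-batch animals, all sGC. They are therefore not separate checks. In the first batch alone 32 subunits were above 0, against 48.8% of all genes, in place of 48 with all animals. The number of subunits below 0 was 30 without Veh animal SGM9, 26 without SGM21 and 21 without Veh animal SGM13. The subunit median relative to all genes was 0.028 in all animals and 0.0086 within the first batch, where 0 members passed. Within the first batch NDUFB4 stood at 0.091 (adjusted p = 0.426), SDHC at 0.094 (adjusted p = 0.417) and SDHA at -0.057 (adjusted p = 0.46). The second-batch animal SGM21 had the highest subunit median of the F3 sGC animals, 0.12, against -0.015 to 0.032 in the others, and without it the subunit median relative to all genes was 0.0081. It was 0.0049 without Veh animal SGM9 and 0.012 without Veh animal SGM13. Cytosolic ribosomal proteins in F3 had a median of 0.074, oligodendrocyte markers of 0.091 and PVN neuroendocrine markers of -0.0046, with 0 called in each of these lists.

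The differences between generations were tested as differences of fold changes in 1 limma fit over the 11427 genes tested in all 3 tables, with a separate Veh group in each generation. The fit used 1 residual variance per gene for all 3 generations. The median within-group SD over all genes was 0.12 in F1, 0.13 in F2 and 0.083 in F3 on the log2 scale. Each SE and adjusted p of a contrast therefore also rests on the animals of the generation outside it, and the effect of this pooling was not tested. Between F1 and F3, 31 of 68 members had a lower fold change in F1 and 1 a higher one, against 8.09% and 9.33% of all genes. They comprised 16 of 30 complex I members, 1 of 3 in complex II, 3 of 6 in complex III, 5 of 11 in complex IV, 5 of 11 in complex V and 1 of 7 assembly factors, and the median difference was -0.22 over 61 subunits. ATP5H differed by -0.38 ± 0.053 (SE; adjusted p = 1.68e-05), NDUFB4 by -0.35 ± 0.067 (SE; adjusted p = 5.50e-04), NDUFS3 by -0.30 ± 0.058 (SE; adjusted p = 6.65e-04) and UQCR10 by -0.29 ± 0.057 (SE; adjusted p = 6.82e-04). The member with a higher fold change in F1 was SDHA, with a difference of 0.19 ± 0.054 (SE; adjusted p = 0.0148), while SDHC differed by -0.26 ± 0.084 (SE; adjusted p = 0.031). With the F3 animals of the first batch alone, 21 members differed. The share of all genes in that refit is not given here, so the count cannot be read against it. ATP5H then differed by -0.34 ± 0.052 (SE; adjusted p = 1.05e-04), SDHA by 0.19 ± 0.058 (SE; adjusted p = 0.0348) and SDHC by -0.25 ± 0.092 (SE; adjusted p = 0.0731).

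Between F1 and F2, 5 of 68 members had a lower fold change in F1 and 0 a higher one, against 6.54% and 7.46% of all genes. The share of the members was near that of all genes. The members were ATP5H at -0.26 ± 0.055 (SE; adjusted p = 0.00365), NDUFA5 at -0.23 ± 0.069 (SE; adjusted p = 0.027), UQCR10 at -0.21 ± 0.059 (SE; adjusted p = 0.0197), NDUFAB1 at -0.20 ± 0.065 (SE; adjusted p = 0.0361) and ATP5C1 at -0.18 ± 0.056 (SE; adjusted p = 0.035). Between F2 and F3, 0 of 68 members passed by limma against 0.158% of all genes, and 15 had an unadjusted p under 0.05, against 14.5% of all genes. On the deposited scale 0 members differed in any of these contrasts. Leaving out 1 animal gave 2 to 11 members for F1 against F2, with 11 without Veh animal SGM15 and 9 without sGC animal SGM8 of F1, 2 without sGC animal SGM4 of F1, and 3 without each of the Veh animals SGM7, SGM11 and SGM19 of F1, Veh animal SGM23 of F2 and sGC animal SGM26 of F2. It gave 24 to 43 for F1 against F3, and 0 or 1 for F2 against F3, with 1 without Veh animal SGM28 of F2. The shares of all genes in these refits are not given here, so the counts cannot be read against them.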

How the data were processed

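Messenger RNA libraries of PVN micropunches from 32 animals were sequenced. Reads were mapped by the authors with TopHat2 (build cavPor3) and summed per gene with GenomicAlignments. The authors then removed the F3 batch difference with ComBat and unwanted variation with RUVSeq (residuals). Each deposited value is a whole-number normalized count of this kind, which is a score for testing purposes because it is no longer a count of reads. Whether counting used strand is not given in the sources used here, and reads shared with pseudogenes of respiratory genes could not be separated. The columns with the authors' own fold changes and p-values were not used. Repeat runs of F3 Veh animals SGM5 and SGM9 were not used here.

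Each animal was scaled to the mean total of its table. Genes with a mean of at least 10 were compared between sGC and Veh within each generation on log2(value + 1), using the moderated two-sided test of limma 3.58.1 (R 4.3.3) with a mean-variance trend. Adjusted p-values are Benjamini-Hochberg values over all genes, called under 0.05. Differences of fold changes between generations were contrasts of 1 limma fit with an intercept and a treatment effect per generation, and 1 residual variance per gene over all generations. The scripts were tested on simulated data. The alternatives were size factors, the deposited scale, a pseudocount of 5, minimum means of 1 and 50, the directions removed by the residual normalization as covariates (1 in F1, 1 in F2 and 2 in F3, from the values), leaving out each animal, and the first F3 batch alone or batch as a covariate. For the differences between generations, leaving out animals, the removed directions and the first F3 batch alone were added after seeing the data.

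The members, the gene lists and the tests were chosen with earlier results of these data known. Named genes are fixed members by role, isoform partners, in each generation the member with the smallest p of each complex, the 3 largest rises and falls with a mean of at least 50 and up to 10 called members by p, and 4 regulators. Role genes and isoform partners are named in F2 and F3 only where another part of this rule names them. Litters are not given in the labels, and the authors state that their sample sizes count independent litters. The tests set each group difference against the spread between animals within the groups and treat the animals as independent. The number of animals and the values' spread set the precision, and no count-based interval is given because the values are not raw counts.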

Additional observations from a re-analysis of the deposited data

Results flagged for a closer look

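An extreme animal was looked for in 152 groups of values by Dixon's criterion, which chance passes in about 5% of groups, and 14 were marked. In F1 the Veh animal SGM15 was far below the other Veh animals for ATP5A1 (14043 against 15489 or more), ATP5G2 (1583 against 1929 or more), UQCR10 (1151 against 1267 or more), NDUFAB1 (1393 against 1591 or more) and ESRRA (4638 against 5220.0 or more). Among F1 sGC animals, SGM8 was far above the others for COX5A (3097 against 2809 or less) and for the median of complex I (-0.057 against -0.23 or less), and SGM16 for ATP5G2 (1864 against 1651 or less). In F2, sGC animal SGM24 was high for SDHB (1901 against 1803 or less) and COX6B2 (139 against 85.7 or less). In F3, Veh animal SGM9 was high for SDHA (3999.9 against 3878 or less), sGC animal SGM2 was low for SDHC (2838 against 3019 or more), and sGC animal SGM21 of the second batch was high for the median of all subunits (0.12 against 0.032 or less) and of complex I (0.13 against 0.035 or less).

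In the limma fit the fold change was lower in F1 than in F2 for 5 of 68 members and higher for 0, against 6.54% and 7.46% of all genes. This share of the members was near that of all genes. Between F1 and F3, 32 members differed, 31 lower and 1 higher in F1, against 8.09% and 9.33% of all genes. Between F1 and F2 the differences of log2 fold changes were -0.18 for ATP5C1, -0.26 for ATP5H, -0.23 for NDUFA5, -0.20 for NDUFAB1 and -0.21 for UQCR10. Between F1 and F3, for those of the 32 that are named in F1, they were -0.24 for ATP5C1, -0.25 for ATP5F1, -0.23 for ATP5G3, -0.38 for ATP5H, -0.23 for COX5A, -0.23 for COX6A1, -0.31 for COX6C, -0.29 for COX7A2, -0.22 for NDUFA4, -0.33 for NDUFA5, -0.28 for NDUFAB1, -0.26 for NDUFB2, -0.35 for NDUFB4, -0.30 for NDUFS3, -0.32 for NDUFS6, -0.29 for UQCR10, -0.14 for UQCRFS1 and 0.19 for SDHA.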

How the results depend on the processing

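On the deposited scale 78 genes were called in F1 in place of 1943, 0 members in place of 32, and 0 members differed between F1 and F2 or between F1 and F3. With the removed directions as covariates, 1252 genes and 19 members were called in F1, 1 gene in F3, and 2 members differed between F1 and F2. In F3, 10 genes were called with a minimum mean of 50, 0 in the first batch alone and 3 with batch as a covariate, in place of 5. Leaving out 1 animal gave 889 to 1956 called genes and 12 to 38 called members in F1, 0 to 26 genes in F2, 1 to 20 genes in F3, and 2 to 11 (F1 against F2), 24 to 43 (F1 against F3) and 0 to 1 (F2 against F3) members that differed. With the first F3 batch alone 21 members differed between F1 and F3 in place of 32. For the refitted differences between generations the shares of all genes are not given here. Those member counts therefore cannot be read against all genes. COX6B2 in F1 turned to 0.014 on the deposited scale and ran from -0.15 to 0.055 without 1 animal, and COX7A1 in F2 turned to -0.040 and ran from -0.031 to 0.095. The cause of these changes was not tested. No paired analysis was possible because the groups compared share no replicate numbers. The subunit median relative to all genes kept its sign in every alternative run. For the alternative scalings this was fixed in advance, because a factor per animal shifts all its genes nearly alike. No member passed in F2 or F3 in any alternative run.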

Other observations

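Across the 61 subunits tested in every generation, the log2 fold change was lower in F1 than in F2 in 54 (52.4% of all genes), lower in F2 than in F3 in 56 (45.2%), and in the order F1, F2, F3 in 51 (19.4%). With the F3 animals of the first batch alone, the last count was 49 (18.8%). It was below 0 in F1 and F2 and above 0 in F3 in 44 subunits (14.4% of all genes) with all F3 animals and in 31 (13.3%) with the first batch alone. These counts are descriptions, since the subunits share the animals and were not tested as a set.

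Outside the complexes, UCP2, an inner membrane uncoupling carrier, rose in F1, with a log2 fold change of 0.53 ± 0.16 (SE; adjusted p = 0.0427), while the related carrier SLC25A14 fell, with -0.23 ± 0.050 (SE; adjusted p = 0.0136). ETFDH, which passes electrons from fatty acid oxidation to ubiquinone, and PDSS1, an enzyme of ubiquinone synthesis, fell with -0.17 (adjusted p = 0.0113) and -0.23 (adjusted p = 0.0144). The transcription factors CREB1 and HIF1A rose with 0.38 (adjusted p = 0.00475) and 0.22 (adjusted p = 0.00809). These genes were chosen after their values were seen.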
